A study of Mus musculus with 4 samples.

Results

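The Hox genes examined here were the rows of the deposited gene table whose gene symbol is Hox, a letter from a to d and a number. The symbol alone chose them, and 38 of 39179 genes matched, 11 in the Hoxa cluster, 10 in Hoxb, 9 in Hoxc and 8 in Hoxd. Messenger RNA had been sequenced from cultured mouse embryonic fibroblasts (MEFs), the connective tissue cells that grow out of embryos, of the BALB/c strain. Passage 2 cells had received either a control lentivirus with green fluorescent protein (GFP) or the lentivirus of 3 germ line and early embryo factors, Stella (made by Dppa3), Oct4 (made by Pou5f1) and Nanos2, called SON; there were 2 libraries for each. Both groups had 4 days of puromycin at 2 µg/ml from 72 h after infection, and a further 21 days in culture without it. The virus and the culture that followed it coincide with the groups and cannot be told apart from the delivered genes. Nothing in the labels tells if I and II of a group were grown as separate cultures, and p-values measure only the spread between these libraries, which may be technical.

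Hox genes encode homeodomain transcription factors that give cells along the head to tail axis their position. They lie in clusters in which the order on the chromosome follows the order of expression along the axis: low paralog numbers are anterior (hindbrain and neck), middle numbers are active in the trunk, and the highest numbers are posterior (lumbar, tail, distal limb and genital). Genes with the same number in different clusters are paralogs, copies that go back to duplication of an ancestral cluster. Fibroblasts in culture are known to keep a Hox pattern that records the body site they came from, and MEF cultures hold cells from many sites.

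Values are normalized read counts, that is, reads divided by 1 size factor per library. The libraries held between 14680865 and 37097571 reads in genes, with the SON libraries the shallower, so 1 read was worth 0.594 to 1.47 normalized counts. The reads of the delivered genes followed the labels: Pou5f1 had 0 reads in each control library, 329 in SON I and 290 in SON II, Dppa3 had 0, 1, 248 and 201, and Nanos2 had 0, 1, 267 and 274. Fibroblast markers were present in every library, with 12 of 12 listed genes tested, but their summed level was 980928 in GFP control I against 513060 in GFP control II and 491798 and 437272 in SON. In such bulk libraries, fewer cells with a given Hox pattern and less RNA per cell cannot be told apart.

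The fibroblasts expressed all 4 clusters, most of all members from the middle of the paralog order. Positions refer to GRCm38. The Hoxa cluster lies on chromosome 6, Hoxb on chr11:96194316-96368256, Hoxc on chr15:102921103-103036852 and Hoxd on chr2:74668310-74765142. In the GFP control, the level per kilobase of exon, which allows genes to be compared, was highest for Hoxb9 at 610 ± 0.0254 normalized counts per kb (SD, n = 2). This SD lies below the counting error of the 1879 and 2640 reads of Hoxb9. Hoxc8 followed at 392 ± 5.20, then Hoxc6 at 378 ± 64.7, Hoxd8 at 252 ± 53.0 and Hoxb7 at 208 ± 6.72. Of these, Hoxc8 and Hoxc6 did not differ beyond their spread, and neither did Hoxd8 and Hoxb7. In Hoxa the highest member over the 4 libraries was Hoxa5, a gene of lung and neck vertebra development, at 110 ± 23.2 per kb in the control. In the control alone Hoxa10 was higher, at 124 ± 35.6 per kb, a difference within their spread. Hoxb9, a gene of rib identity, stood at percentile 86.9 of the tested genes by level per kb in the control, Hoxc8, a gene of thoracic identity, at percentile 80.1 and Hoxd8 at 70.8.

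**Figure D1:**
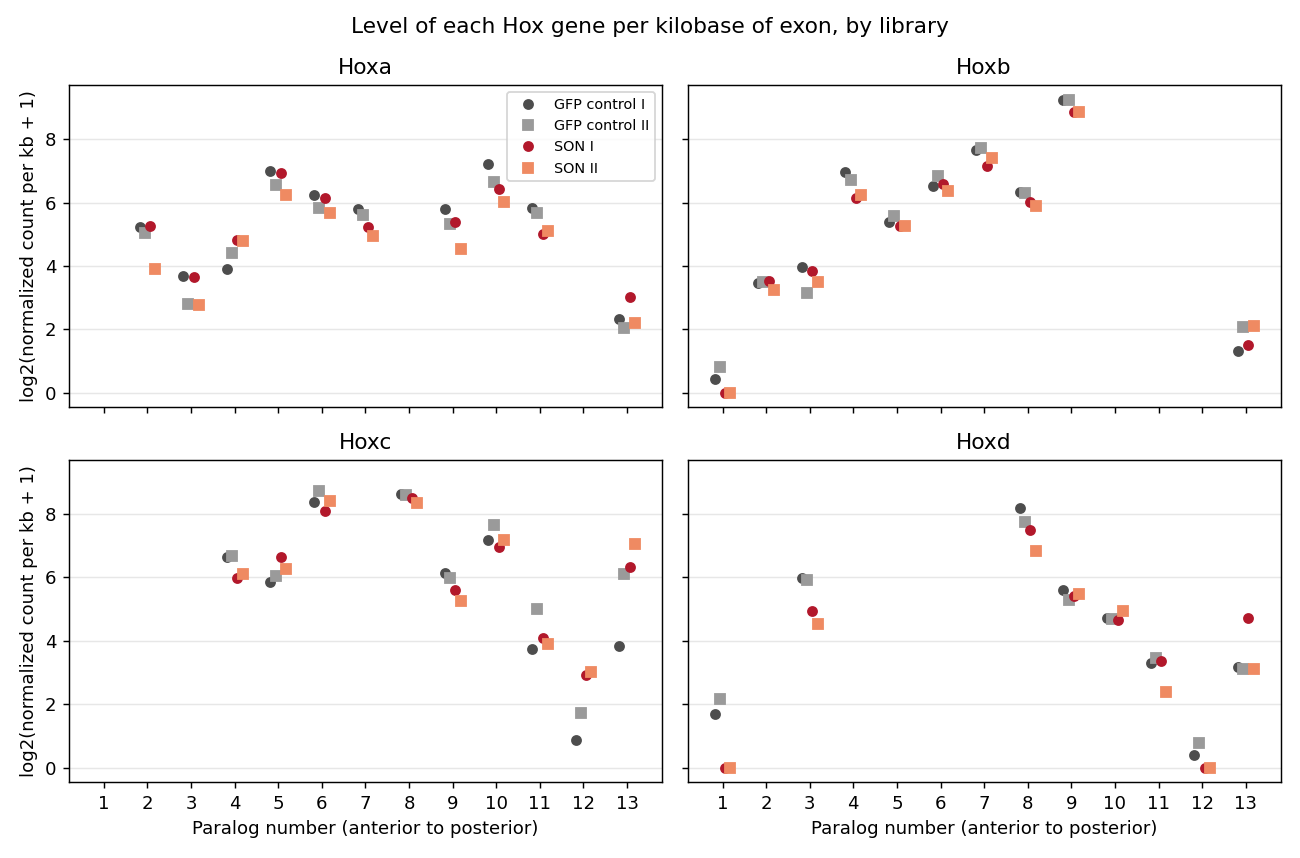
Each panel shows 1 cluster, with the paralog number from anterior to posterior on the horizontal axis and the level as log2(normalized count per kb of exon + 1) on the vertical axis; each point is 1 library, for 37 of the 38 members. By mean over the control libraries Hoxb9, Hoxc8 and Hoxd8 were the highest of their clusters, and Hoxb1 and Hoxd12 lay near 0 in every library.

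The 6 members with the fewest reads were of paralogs 1, 12 and 13. Hoxb1 and Hoxd12 had 1 and 3 reads each in the GFP control libraries and 0 in both SON libraries, and Hoxc12 had 1, 4, 5 and 5 reads. Hoxa13 had 12, 13, 13 and 6 reads and Hoxb13 had 4, 12, 3 and 5, so at this depth a difference in any of these genes was not detectable. Other members at the ends of their clusters were not low: Hoxc4, the most anterior of Hoxc, stood at 100.2 ± 0.432 per kb (SD, n = 2) in the control. Together the 8 anterior members (paralogs 1 to 3) made up 4.61% and 4.605% of the summed Hox level per kb in the control and 5.63% and 3.67% in SON. The 14 central members (paralogs 4 to 8) made up 59.3%, 58.3%, 58.5% and 58.0% of it. The 16 posterior members (paralogs 9 to 13) made up 36.04%, 37.1%, 35.9% and 38.3%. Each of the 3 shares overlapped between the groups. Within the posterior set, paralogs 12 and 13 alone took 0.836% and 2.53% of the summed level in the control and 4.27% and 5.78% in SON, without overlap. The order of levels over the 38 members was similar in all libraries: Spearman's rho between the log2 levels of any pair of libraries was 0.88 to 0.96 across genes, which share gene length and library depth and are no independent replicates.

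As a set, the Hox genes lay lower in SON, but no single member passed the test over all genes. After a filter on low values 32 of the 38 members were tested, and Hoxa13, Hoxb1, Hoxb13, Hoxc12, Hoxd1 and Hoxd12 were not. In limma on log2(value + 1), a linear model with Benjamini-Hochberg adjustment over 15283 genes, 0 of the 32 had an adjusted p under 0.05. That threshold called 3 genes lower and 5 higher in all (0.0196% and 0.0327% of those tested). At an unadjusted p under 0.05, 6 Hox genes were lower and 0 higher, beside 6.57% of all genes lower and 5.99% higher. Both SON libraries lay below both controls for 14 of the 32 Hox genes and above them for 4, where 23.7% and 22.2% of all tested genes did so. The log2 difference, SON minus GFP control, was negative for 24 of the 32 and positive for 8, beside 50.7% and 49.3% of all tested genes. Its median was -0.33 over the Hox genes and -0.01 over all tested genes. Without SON II the Hox median was -0.16.

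DESeq2, a count model, made 1 Hox call on the recovered reads, Hoxd3 lower (log2 difference -1.23, adjusted p = 0.0137), in a fit that called 2.50% of 14937 genes lower and 1.45% higher. In the authors' deposited table, 1 of the 32 Hox genes with an adjusted p-value was lower, again Hoxd3, beside 2.59% of its 14637 genes lower and 1.48% higher. The edgeR quasi-likelihood test and limma voom called 0 Hox genes. The sign of the log2 difference held under all alternatives run for 22 of the 32 tested members. It changed under at least 1 alternative for the other 10, which were Hoxa2, Hoxa3, Hoxa5, Hoxa6, Hoxb2, Hoxb3, Hoxc11, Hoxd9, Hoxd10 and Hoxd13. Hoxd9, at a log2 difference of 0.00, was the 1 member whose sign changed with TMM scaling.

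Most markers of the fibroblasts themselves also lay lower in SON. Of the 12 listed, 8 had a negative log2 difference, 6 were lower and 0 higher at an unadjusted p under 0.05 in limma, 0 passed its adjusted p, and the authors' deposited table had 5 lower and 0 higher. Their median was -1.04, -0.38 without GFP control I and -1.60 without GFP control II. Both SON libraries lay below both controls for 7 of the 12 and above them for 3, beside 23.7% and 22.2% of all tested genes. Dcn, the collagen-binding proteoglycan decorin, had the smallest p at 89486 and 35605 in the control against 8693 and 10142 in SON (log2 difference -2.59 ± 0.46, limma adjusted p = 0.230). The other 11 markers summed to 891442 and 477455 in the control against 483105 and 427130 in SON, overlapping. The part of these marker differences in the Hox values was not tested.

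**Figure D2:**
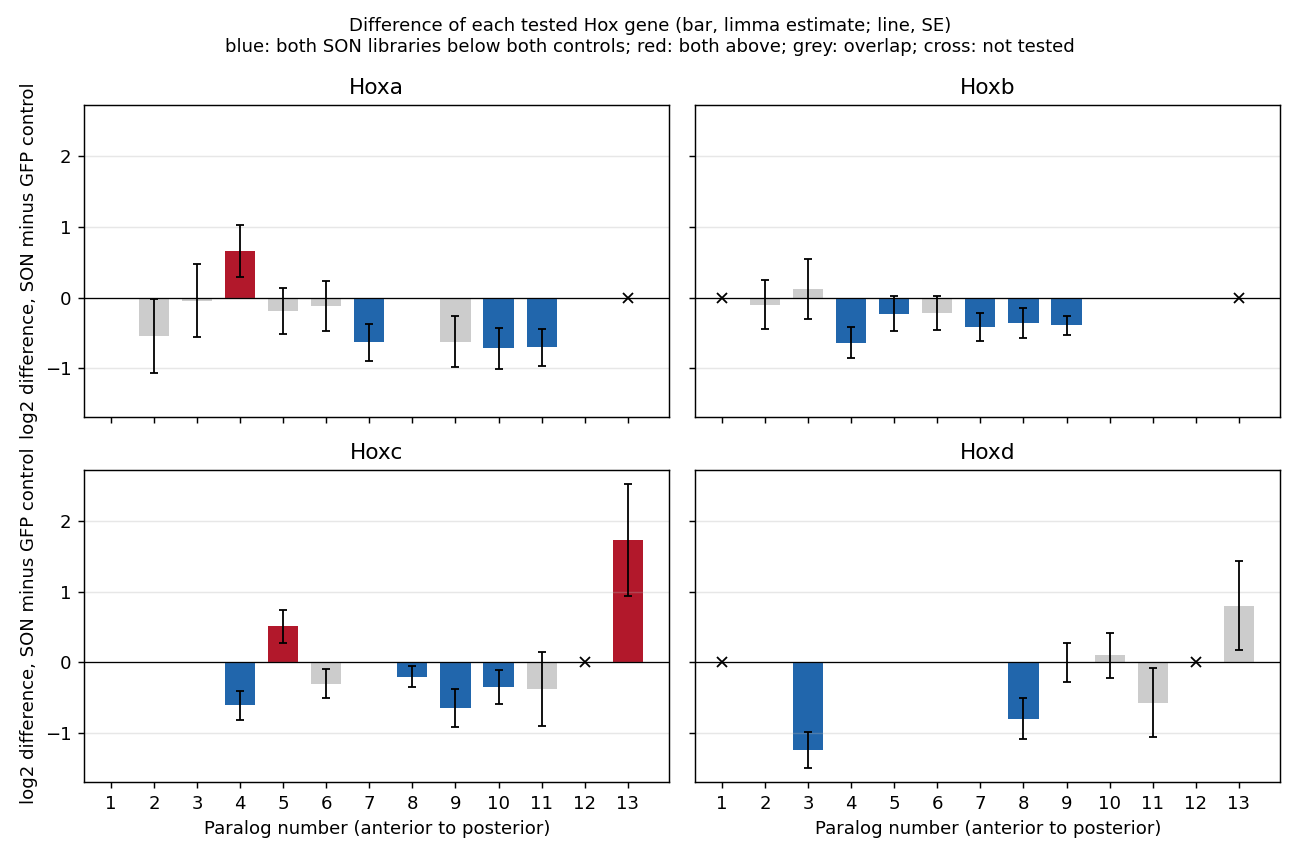
Each bar is the limma estimate of the log2 difference, SON minus GFP control, for 1 Hox gene (31 of the 32 tested are drawn), with its SE as a line, against the paralog number in each cluster. The 14 blue bars are members with both SON libraries below both controls, the 3 red bars (Hoxa4, Hoxc5 and Hoxc13) members with both above, and crosses mark the 6 members not tested.

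The median log2 differences of the 4 clusters were close, at -0.37 for Hoxa (10 tested), -0.29 for Hoxb (8), -0.33 for Hoxc (8) and -0.28 for Hoxd (6). Hoxb was the most even: 7 of its 8 tested members were negative, its values ran from -0.64 to 0.12, and its median stayed between -0.36 and -0.26 when any 1 library was left out. Hoxa was not: its median was 0.13 without SON II and -0.60 without SON I. For Hoxd the median moved between -0.58 without SON I and -0.03 without SON II, and for Hoxc between -0.51 without GFP control I and -0.12 without GFP control II.

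Summing all members of a cluster in each library gave 1 value per library, weighted towards the highest genes. The Hoxb sum was 2814 and 2805 in the control and 2152 and 2156 in SON. Both SON libraries lay below both controls. The libraries of a group differed by less than the counting error of the sums (SE 40.8 to 56.3). Hoxb9 alone made up 55.7% of the sum averaged over all libraries. The Hoxd sum was 1265 and 1035 in the control and 855 and 589 in SON, again without overlap. Averaged over all libraries, 58.4% of it was Hoxd8. For Hoxa it was 1594 and 1233 against 1295 and 871, and for Hoxc 2860 and 3348 against 2727 and 2872. In both of these clusters the groups overlapped. The log2 differences of these sums were -0.40 for Hoxa, -0.38 for Hoxb, -0.14 for Hoxc and -0.69 for Hoxd. Hoxb was steady when 1 library was left out, between -0.39 and -0.38. Hoxa moved to -0.11 without SON II, -0.22 without GFP control I and -0.69 without SON I, and Hoxd to -0.42 without SON II and -0.96 without SON I. Hoxc moved to -0.031 without GFP control II and -0.26 without GFP control I, and it was -0.24 with Hoxc13 left out of the sum. An exact two-sided permutation test gave p = 0.333 for Hoxb and Hoxd and p = 0.667 for Hoxa and Hoxc; with 2 libraries against 2 it cannot go below 0.333. Whether the clusters differ from each other was not tested.

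**Figure D3:**
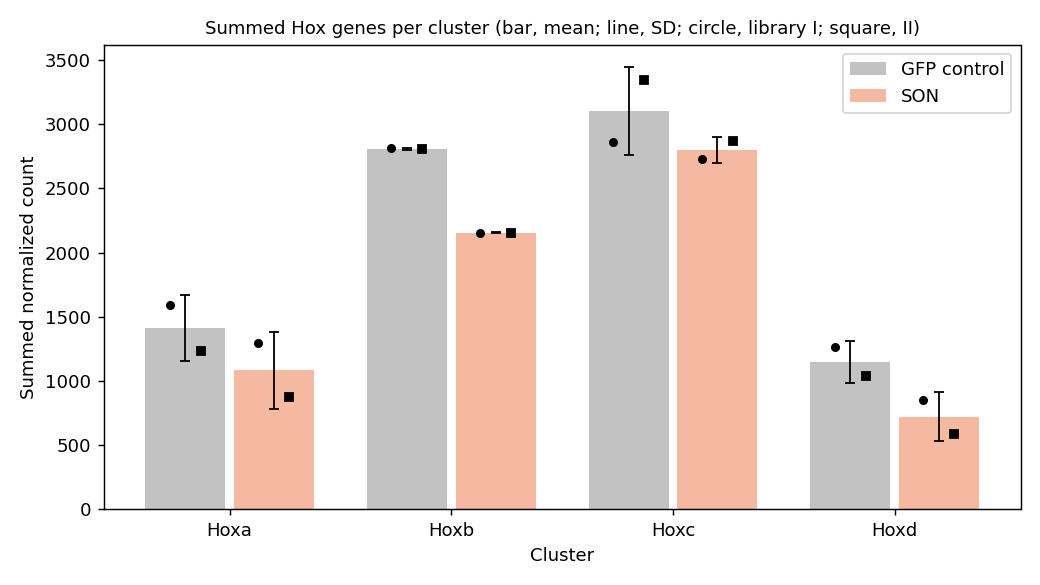
Bars show the mean summed normalized count of all members of each cluster, lines the SD (n = 2), and points the libraries (circle I, square II). Hoxb and Hoxd did not overlap between the groups, and the libraries of a group nearly coincided for Hoxb (2814 and 2805, 2152 and 2156).

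The paralog number and the log2 difference had no common order over the family. Across the 32 tested members Spearman's rho between the paralog number and the log2 difference was -0.12. Within clusters it was -0.83 in Hoxa (n = 10), -0.52 in Hoxb (n = 8), 0.17 in Hoxc (n = 8) and 0.83 in Hoxd (n = 6), so Hoxa and Hoxd ran in opposite directions. These are descriptions over neighbouring genes read in the same 4 libraries. They rested in part on SON I: without it rho was -0.38 in Hoxa and 0.37 in Hoxd. By region, the median log2 difference was -0.07 over 6 anterior members, -0.26 over 14 central members and -0.39 over 12 posterior members. The central median held between -0.36 and -0.26 when a library was left out and the posterior one between -0.44 and -0.23, whereas the anterior one was 0.23 without SON II and -0.42 without GFP control II.

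Paralog groups summed over the clusters, per kb of exon, lay lower in SON at most positions. Of the 13 groups, 8 had both SON sums below both controls (paralogs 3, 4, 6, 7, 8, 9, 10 and 11), 2 had both above (12 and 13), and 3 overlapped (1, 2 and 5). Of single tested genes, 23.7% had both SON libraries below both controls and 22.2% had both above. The most even of the paralog groups was paralog 10, the lumbar group, at 319 and 326 in the control and 235 and 237 in SON. Paralog 11, known for the forearm and the kidney, stood at 77.6 and 91.3 against 57.2 and 51.4. Paralog 13, the group of digits, tail and genital tubercle, stood at 26.9 and 82.4 against 113 and 145. Hoxc13 contributed 13.2, 68.4, 78.7 and 131 to the paralog 13 sums. The paralog 12 sums rest on 1 to 5 reads of Hoxc12 in a library, too few to show a difference.

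Among the tested anterior genes, Hoxd3 had the largest log2 difference. Hoxd3 (ENSMUSG00000079277, chr2:74711927-74748442, plus strand), which takes part in forming the upper neck vertebrae, measured 259.8 and 252 normalized counts in the control and 125 and 92.5 in SON. The groups were far apart relative to the gap within each. Its log2 difference was -1.24 ± 0.26 (SE; limma unadjusted p = 0.00429, adjusted p = 0.249). In the authors' deposited table it was -1.15 with an SE of 0.32 and an adjusted p of 0.0125. Over the alternatives the adjusted p of Hoxd3 ran from 0.0137 (DESeq2, all libraries) to 1.00 (1 control library left out), and DESeq2 without 1 library gave at least 0.0526. The reads of Hoxd3 cannot all be assigned to it: its exons share 388 bases with Hoxd4, which was not analysed here, 2225 bases with Gm28230 on the same strand and 347 bases with the antisense gene Hoxd3os1, and the library kit does not keep strand. Hoxd3os1 itself measured 48.4 and 49.9 in the control and 38.2 and 44.1 in SON.

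Hoxd1, at the anterior end of the same cluster, had 5 and 11 reads in the control and 0 and 0 in SON. Set against a floor of 3 reads over the SON group, the control level of Hoxd1 was 2.62-fold higher. This ratio leaves out the counting error of the control reads and the spread between libraries. Haglr, a noncoding RNA read in the opposite direction from the start of Hoxd1 towards Hoxd3 (chr2:74748422-74762896, minus strand), measured 45.9 and 25.6 in the control and 9.54 and 7.34 in SON. Both SON libraries were below both controls, at 7 and 5 reads against 55 and 43, with a log2 difference of -1.91 ± 0.48 (limma unadjusted p = 0.00968, adjusted p = 0.270). Hoxd8 (chr2:74704615-74707933), the trunk gene of the cluster, measured 793 and 588 against 494 and 313, a log2 difference of -0.80 ± 0.29 (limma adjusted p = 0.374) that ran from -1.12 to -0.47 (without SON II) when 1 library was left out. Hoxd8, Hoxd3, Haglr and the untested Hoxd1 all lie in the stretch from Hoxd8 to the anterior end of the cluster. Hoxd3os1 lies there too, with a smaller log2 difference of -0.26 (limma unadjusted p = 0.452). Beyond Hoxd8, towards the posterior end, Hoxd9, Hoxd10, Hoxd11 and Hoxd13 each overlapped between the groups, with log2 differences of 0.00, 0.10, -0.57 and 0.80.

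The start regions of Hoxd8, Hoxd3 and Hoxd1 are shown because these members lay lower together in both SON libraries. Each is the RefSeq window of GRCm38.p6 from 250 bases before to 50 after the annotated start, plus strand, 5′ to 3′. Capitals mark AGGTCA, the core site of nuclear receptors such as those for retinoic acid, and CCAAT, a common promoter element, on either strand (TGACCT and ATTGG when read on the other). No match overlapped another. The Hoxd8 window is chr2:74704365-74704664, that of Hoxd3 chr2:74711743-74712042 and that of Hoxd1 chr2:74762730-74763029, which also covers the annotated start of Haglr.
Hoxd8: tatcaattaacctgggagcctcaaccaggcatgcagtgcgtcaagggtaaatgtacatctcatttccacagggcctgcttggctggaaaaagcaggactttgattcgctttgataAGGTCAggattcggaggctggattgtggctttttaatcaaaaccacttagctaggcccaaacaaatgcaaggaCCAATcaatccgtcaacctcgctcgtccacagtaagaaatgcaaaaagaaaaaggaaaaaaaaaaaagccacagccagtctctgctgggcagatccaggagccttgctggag
Hoxd3: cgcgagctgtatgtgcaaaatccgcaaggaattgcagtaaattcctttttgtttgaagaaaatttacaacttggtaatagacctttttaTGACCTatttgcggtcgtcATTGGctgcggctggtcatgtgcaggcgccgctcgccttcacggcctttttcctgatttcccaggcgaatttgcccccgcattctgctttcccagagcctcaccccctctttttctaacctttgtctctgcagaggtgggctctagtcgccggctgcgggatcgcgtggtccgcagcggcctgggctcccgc
Hoxd1: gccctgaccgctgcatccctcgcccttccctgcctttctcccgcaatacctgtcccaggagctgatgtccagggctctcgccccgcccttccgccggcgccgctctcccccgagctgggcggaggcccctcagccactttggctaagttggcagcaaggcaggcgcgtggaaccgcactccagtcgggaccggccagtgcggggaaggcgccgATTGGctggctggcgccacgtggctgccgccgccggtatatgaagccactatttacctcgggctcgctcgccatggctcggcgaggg

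RefSeq windows were matched for 21 of the 38 members, 23 windows in all, beside 32851 windows of all genes. CCAAT was found in 14 of the 23 (60.9%, against 37.4% of all windows) and AGGTCA in 6 (26.1% against 16.3%). TGATNNAT, a site that Hox proteins bind with Pbx cofactors, was in 4 (17.4% against 8.85%), TAATTA, the core that homeodomains bind, in 2 (8.70% against 5.29%) and TATAAA in 3 (13.04% against 13.6%). The Oct4 octamer ATGCAAAT was in 0 of the 23, and in 1.74% of all windows. Hox windows had a median of 15 CpG sites against 7 in all, and a GC content of 58.0% against 52.7%. A match is a description of letters and not of binding.

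Other anterior members overlapped between the groups. Hoxb2, a hindbrain gene, measured 35.1 and 35.7 in the control and 36.8 and 29.4 in SON. Hoxa2, a gene of hindbrain and branchial arch identity, measured 64.3 and 56.5 against 66.8 and 25.0, with SON II alone low. Hoxa3, needed for the thymus and parathyroid, and Hoxb3 also overlapped, with log2 differences of -0.04 and 0.12. Exons of Hoxb2 share 953 bases with the antisense gene Hoxb3os.

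Central members lay lower more often than not: of 14 tested, 12 had a negative log2 difference, and 8 had both SON libraries below both controls. Over all tested genes these shares were 50.7% and 23.7%. Hoxb4, known for its action in blood stem cells, measured 322 and 266 against 181 and 194 (log2 difference -0.64 ± 0.22, limma unadjusted p = 0.0301, adjusted p = 0.353). Its paralog Hoxc4, the most anterior gene of the Hoxc cluster, measured 256 and 258 against 161 and 176 (log2 difference -0.61 ± 0.21, limma adjusted p = 0.353). The third paralog of the group went the other way: Hoxa4, at a lower level, measured 22.6 and 32.1 against 43.6 and 42.6.

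Hoxc5 was the other central gene with higher SON values, at 177 and 199 against 304 and 236.5 (log2 difference 0.51 ± 0.23, limma adjusted p = 0.452). Its annotated exons share 166 bases with Hoxc10. Hoxa5 measured 238 and 177 against 228 and 141 and overlapped. Hoxc8 measured 1122 and 1101 against 1023 and 914, a log2 difference of -0.20 ± 0.15 (limma adjusted p = 0.627), -0.28 to -0.12 when 1 library was left out, and the groups did not overlap. Of the other central members, Hoxa7, Hoxb5, Hoxb7 and Hoxb8 had both SON libraries below both controls, with log2 differences from -0.63 (Hoxa7) to -0.23 (Hoxb5). Hoxa6, Hoxb6 and Hoxc6 overlapped, at -0.12, -0.22 and -0.30.

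Of the 12 posterior members tested, 8 had a negative difference. Hoxb9 lay close within each group, at 1569 and 1569 in the control and 1190.4 and 1200.1 in SON. These gaps are smaller than the counting error of its 1879, 2640, 873 and 817 reads, so they do not measure repeatability. The log2 difference of Hoxb9 was -0.39 ± 0.13 (limma unadjusted p = 0.0298, adjusted p = 0.352). Hoxa10, a gene of the lumbar region and the uterus, measured 489 and 324 against 281 and 207, and Hoxa11, a gene of the forearm and the uterus, 129 and 115 against 72.3 and 76.4 (log2 difference -0.71 ± 0.26, limma adjusted p = 0.374). Hoxa11 shares 800 bases of exon with its antisense gene Hoxa11os, which measured 12.5 and 13.1 against 10.9 and 10.3, values not divided by length. Hoxc9, a gene of thoracic motor neurons, measured 170.4 and 149.8 against 116 and 89.6, and Hoxc10, of lumbar ones, 276 and 386 against 239 and 275, both without overlap. Hoxa9, which is active in blood progenitors, overlapped at 307 and 219 against 226 and 125, and Hoxc11 overlapped at 25.1 and 62.4 against 32.7 and 27.9.

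At the posterior end, Hoxc13 had higher values in both SON libraries and Hoxd13 in SON I alone. Hoxc13 (chr15:102921103-102928814), which controls keratin genes of hair and nail, measured 32.6 and 168 in the control and 194 and 322 in SON. GFP control I stood far below the other 3 libraries. The log2 difference of Hoxc13 was 1.73 ± 0.80 (limma adjusted p = 0.456), 0.57 without GFP control I and 2.90 without GFP control II. DESeq2 gave 1.35 with all libraries (adjusted p = 0.405). With 1 library left out, DESeq2 gave 0.61 (GFP control I), 2.99 (GFP control II), 1.67 (SON I) and 0.93 (SON II). The fit without GFP control II had the low GFP control I as its only control. Hoxd13, a digit gene, measured 20.05 and 19.02 against 62.7 and 19.1, so SON I stood apart, and without SON I its log2 difference was -0.03 in place of 0.80.

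**Figure D4:**
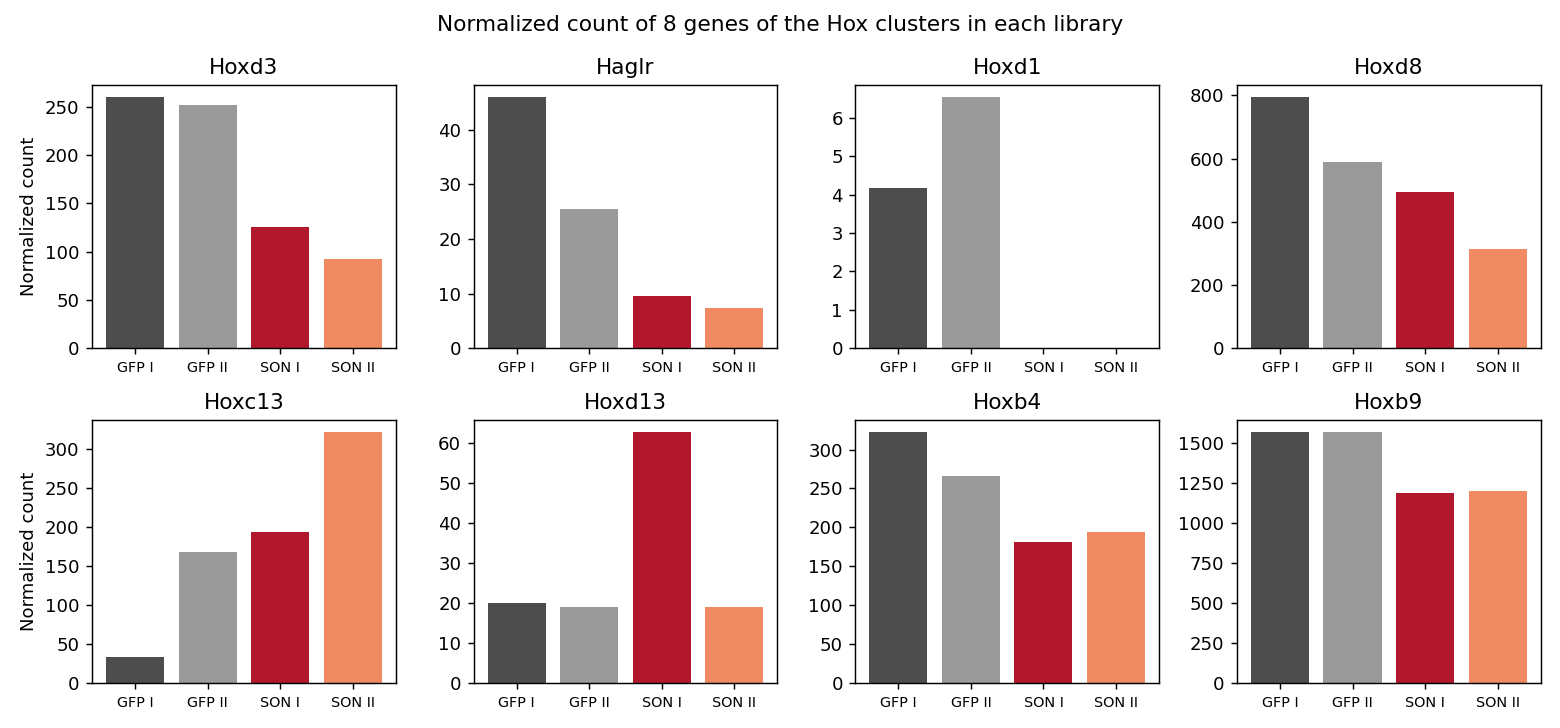
Bars show the normalized count of 8 genes of the Hox clusters in each library, each panel with its own axis from 0. Hoxd3, Haglr, Hoxd1, Hoxd8, Hoxb4 and Hoxb9 were lower in both SON libraries, Hoxc13 varied most within the control (32.6 and 168), and in Hoxd13 SON I stood alone.

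The SON libraries differed from each other more in Hoxa and Hoxd than in Hoxb and Hoxc. Between SON I and SON II the median log2 difference was 0.53 over the Hoxa genes and 0.55 over the Hoxd genes, with 9 of 10 Hoxa members higher in SON I. It was 0.07 over Hoxb and 0.02 over Hoxc. Between GFP control I and II it was 0.31 over Hoxa, -0.01 over Hoxb, -0.26 over Hoxc and 0.06 over Hoxd. For both Hoxa and Hoxd the gap between the SON libraries was larger in size than the median difference between the groups (-0.37 and -0.28). SON I also stood apart from SON II in smooth muscle markers (6 of 6 tested, summed level 365491 against 110443, and 124258 and 138737 in the control) and in macrophage markers (7 of 12 tested, 436 against 996, and 1076 and 1139 in the control). Epithelial markers (3 of 8 tested) summed to 185 and 382 in the control and 664 and 981 in SON, and cartilage markers (3 of 6 tested) to 240 and 309 against 1184 and 1241. In the cartilage list Col2a1, a cartilage collagen, rose from 30.9 and 26.2 to 638 and 937 (log2 difference 4.72 ± 0.29, limma adjusted p = 0.0326), a call lost without GFP control I, SON I or SON II. The other 5 genes summed to 209 and 283 against 545 and 304. Endothelial markers (6 of 8 tested) summed to 165 and 224 against 270.0 and 276, neuronal ones (4 of 8) to 530 and 436 against 1301 and 1044, and skeletal muscle markers (0 of 6) to 11.7, 19.0, 12.3 and 14.7, with Myod1 at 0 reads throughout. In the neuronal list Map2, a microtubule protein of neurons, had the smallest p at 72.7 and 88.6 against 453 and 482, and the other 7 genes summed to 457 and 347 against 848 and 563. The smallest p of the epithelial list was that of the keratin gene Krt19, at 90.2 and 120.1 against 295 and 197. Kdr, an endothelial growth factor receptor, stood at 37.6 and 77.3 against 139 and 138. The other 7 endothelial genes summed to 128 and 147 against 131 and 138, overlapping. Of the 6 endothelial genes tested, 4 had a negative log2 difference. Both Krt19 and Kdr were higher in both SON libraries, and neither passed limma. Myh11, a smooth muscle myosin, stood at 1714 and 2158 against 15017 and 2776, so SON I alone was far higher. Cd14, a macrophage surface protein, stood at 418 and 229 against 136 and 195. The part of these cell types in the Hox values was not tested.

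**Figure D5:**
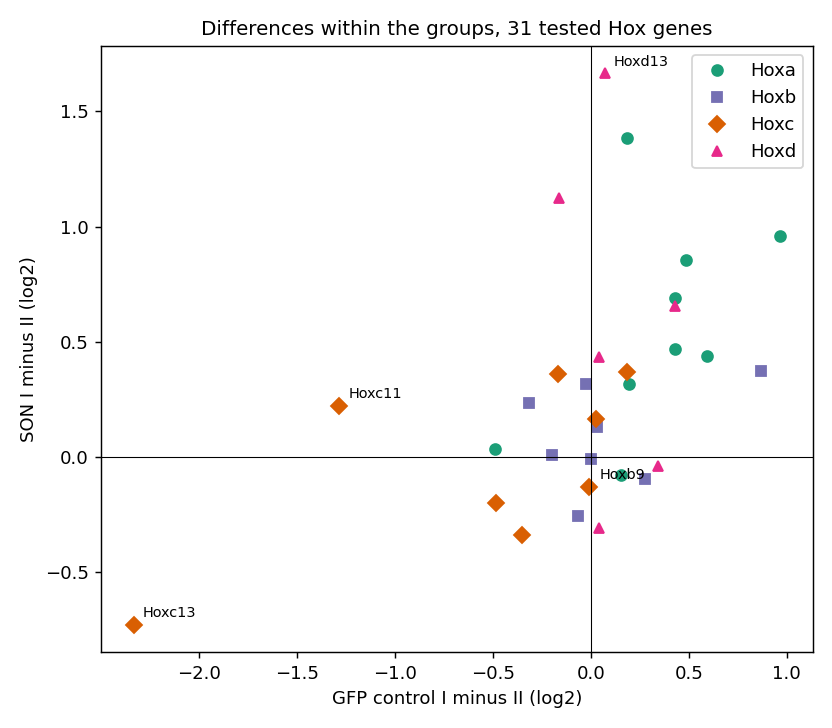
Each point is 1 Hox gene, for 31 of the 32 tested, with the log2 difference between GFP control I and II on the horizontal axis and between SON I and II on the vertical axis. Most Hoxa genes lie to the upper right, Hoxb genes around 0, and Hoxc13 far to the left, at -2.33.

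Genes that are no Hox genes but lie inside the clusters were 39 rows, mostly noncoding, of which 13 were tested. Their median log2 difference was -0.26, 11 of the 13 were negative, and 0 passed limma or the authors' deposited table, with Haglr the 1 gene at an unadjusted p under 0.05 in limma. Outside, within 500 kb of either end, lay 50 protein-coding genes. Of these 33 were tested, 19 were negative, their median was -0.08, and 0 passed limma, with 2 lower at an unadjusted p under 0.05. Gngt2, a G protein subunit gene beside Hoxb, had the smallest p of them and measured 169 and 135 against 38.2 and 41.1 (log2 difference -1.90 ± 0.29, limma adjusted p = 0.230). In the authors' deposited table it had an adjusted p of 0.000369. It was the 1 call among the 34 of these genes with an adjusted p there, beside 2.59% of all its genes lower. Over all genes tested by limma 50.7% were negative, and 6.57% were lower at an unadjusted p under 0.05.

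The clusters also hold microRNA genes, shown because they carry the same paralog structure as the Hox genes and lie among them. Mature sequences are from RefSeq (GRCm38.p6), with the seed (bases 2 to 8, the part that pairs with targets) in capitals. The miR-10 pair lies beside Hoxb4 and in the Hoxd cluster and shares 1 seed, as does the miR-196 family beside the paralog 9 genes.
miR-10a-5p: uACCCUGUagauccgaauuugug
miR-10b-5p: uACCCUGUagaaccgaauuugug
miR-196a-5p: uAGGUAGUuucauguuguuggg
miR-196b-5p: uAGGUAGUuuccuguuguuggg
Counted from the 5′ end, miR-10a and miR-10b differ by U12A and miR-196a and miR-196b by A12C, so the seeds are the same in each pair. Libraries of messenger RNA do not measure mature microRNAs. The Mir196a-1 row held 65.1 and 108 normalized counts in the control and 77.7 and 55.8 in SON, overlapping, and the rows of Mir10a, Mir10b, Mir196a-2 and Mir196b held at most 2 reads in any library.

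Among lists of genes known to act on or with Hox genes, 1 gene passed limma, and it carries retinoic acid, a vitamin A derivative that switches on anterior Hox genes. Of 18 listed genes of the retinoic acid route 15 were tested, with a median log2 difference of -0.41. Beside 0.0196% of all tested genes, 1 of the 15 was called lower. This was Crabp1, which binds retinoic acid in the cytoplasm: it fell from 7732 and 7592 to 1651 and 1512 (log2 difference -2.28 ± 0.14, limma adjusted p = 0.0326). The call was lost without GFP control I, SON I or SON II, when limma called 0 genes. In the authors' deposited table, where 2.59% of 14637 genes were lower, the lower genes of this list included Crabp1 and Crabp2. Crabp2 is named after its values were seen.

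Limma called 0 genes of the other 6 lists of this kind. At an unadjusted p under 0.05 in limma, 6.57% of all tested genes were lower and 5.99% higher. The 9 TALE cofactors, homeodomain proteins that bind DNA with Hox proteins, had a median of -0.16 with 0 at an unadjusted p under 0.05 in limma. Pbx2, with the smallest p, measured 950.5 and 921 against 758 and 796. The 34 Polycomb genes, which keep silent Hox genes repressed, had a median of -0.04, with 1 lower and 3 higher unadjusted. Cbx6 stood at 4510.2 and 3511 against 2709 and 2735. The 14 Trithorax genes and demethylases, which keep active Hox genes open, had a median of 0.04, with 1 higher unadjusted. This was Kmt2b at 1101 and 1056 against 1379 and 1441.

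For the 10 genes of CTCF and cohesin, which shape the chromatin loops of the clusters, the median was -0.10, with 0 unadjusted. Pds5a stood at 1239 and 1214 against 1545 and 1447. Among 16 listed upstream regulators 15 were matched and 7 tested, with a median of -0.22 and 0 unadjusted. Nr6a1, a regulator of trunk Hox timing, measured 114 and 120.1 against 128 and 226. Among 44 other positional homeobox and T-box genes 36 were tested, with a median of 0.03. Beside 6.57% and 5.99% of all tested genes, 6 of these 36 were lower and 8 higher unadjusted. Twist2, a mesenchymal factor, had the smallest p of these in limma at 4086 and 3633 against 1383 and 1974 (log2 difference -1.22 ± 0.21, adjusted p = 0.230). The authors' deposited table called 0 genes of the TALE, Polycomb, Trithorax, CTCF and upstream lists. It had 2 of the 36 lower, Twist2 and En1, and 4 higher, Tbx2, Msx2, Dlx1 and Foxc2, beside 2.59% and 1.48% of its 14637 genes. All of these 36 named here but Twist2 are named after their values were seen.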

How the data were processed

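RNA was made into libraries with the TruSeq mRNA kit v2, which keeps no strand, per the labels' protocols. The submitters' processing notes name the base caller CASAVA 1.8.1, the aligners STAR 2.4.0j and TopHat2 2.0.11, the counters featureCounts (Subread) and HTSeq 0.5.3p3, and DESeq2, on GRCm38 (mm10); the sources used here do not give which of them made the gene table. The authors deposited a signal per gene, reads over a size factor for the library: 100% of values were whole reads within 0.01 reads, and dividing by the step recovered them. The same deposited table holds, per the file headers, the authors' DESeq2 log2 fold change, its Wald score and its p-value. They serve here as the authors' comparison only.

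Samples were grouped by title. The smallest chi-square per degree of freedom between libraries was 53.2, so no library was a copy. All 38 Hox identifiers matched GENCODE M21, which gave coordinates and exon lengths. Genes that passed filterByExpr (edgeR 4.0.16) were tested two-sided with limma 3.58.1 under R 4.3.3, using a mean trend and a pseudocount of 1, the test planned for normalized values. Fold changes on this scale understate those of low genes. The fits by limma, edgeR, DESeq2 and limma voom were tested on simulated counts, and the other steps were not. Alternatives were other pseudocounts, filters and scalings, edgeR, DESeq2 1.42.0, limma voom, each library left out, and a replicate block. DESeq2 on 3 libraries, lengths free of overlap with other genes of the table, Hoxc without Hoxc13, and marker sums without 1 gene were added after seeing the data.

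Hox genes given with all libraries were those called, those with an unadjusted p under 0.05, and in each cluster the highest per kb and the most anterior and posterior with 10 reads in every library. Other lists give called members or that with the smallest p. Hoxa4, Hoxa10, Hoxc5, Hoxd1, Hoxb1, Hoxd12, Hoxc12, the antisense genes and the microRNA rows were added after their values were seen. Hoxa2, Hoxa9, Hoxa13, Hoxb13, Hoxc9, Hoxc10 and Hoxc11 are also given with all libraries and fall outside this rule. Members and lists were chosen with earlier results of these data known. The planned account of repeat copies in the clusters could not be made, because the repeat table gives no coordinates. Hoxd4 was not analysed here. Some single genes are not reported here, and 1 Hox gene is left out of the figures; counts and sums include it.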

Additional observations from a re-analysis of the deposited data

How the results depend on the processing

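The count of genes that limma called over all genes, 8, was 591 with DESeq2 and 4 with limma voom, and 0 to 32 without 1 library; DESeq2 without 1 library called 50, 457, 450 and 645 (leaving out GFP control I, GFP control II, SON I and SON II). Of the Hox genes 0 were called by limma and by edgeR, 1 by DESeq2 (Hoxd3) and 1 by DESeq2 without GFP control II (Hoxc13, higher), with 0 to 1 over the fits that left out a library. The Hoxc13 call came from a fit with GFP control I, low in Hoxc13, as its only control. The Hox median lay between -0.38 and -0.16 without 1 library. The log2 difference of the Hoxb sum moved from -0.383 to -0.398 with TMM scaling and to -0.376 with upper-quartile scaling. Each shift was beyond the spread between libraries of a group, 0.00275 on the log2 scale. That spread was smaller than the counting error of the sums (SE 40.8 to 56.3 normalized counts), as were both shifts. Spearman's correlation with the paralog number over all Hox genes was 0.18 with no filter and -0.16 to 0.050 without 1 library. With no filter it was -0.53 in Hoxa, 0.22 in Hoxb, 0.42 in Hoxc and 0.69 in Hoxd, and without 1 library it ran from -0.90 to -0.38 in Hoxa, 0.048 to 0.50 in Hoxc and 0.37 to 0.94 in Hoxd. By its longest transcript Hoxc8 stood at 499.9 per kb in the control. The log2 difference changed sign when 1 library was left out for Hoxa5 (-0.54 to 0.15 in limma, with 0.022 without GFP control I; 0.055 without GFP control I and 0.13 without SON II in DESeq2), Hoxb2 (-0.26 to 0.056; 0.051 in DESeq2 without SON II) and Hoxd13 (-0.031 to 1.63; -0.038 in DESeq2 without SON I). The cause of these shifts was not tested. With the replicate number as a block limma called 11 genes and 0 Hox genes. The numerals I and II share only a number by the labels: the gap between I and II in the control and that in SON had a Pearson r of 0.22 over all tested genes and 0.42 over the Hox genes, from 1 pair of gaps. At 14680865 to 37097571 reads, 3 reads correspond to 1.78 to 4.41 normalized counts, which limits the members at the ends of the clusters, and 2 libraries a group limit every call.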
